A study of Mus musculus with 2 samples.

Results

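Mineralisation genes are the genes whose products build and control the mineral of bone and of the calcified end of a tendon. 10 of the 32285 genes in the deposited matrices were followed here, picked by symbol and not by their values: the transcription factors Runx2 and Sp7, the phosphate and pyrophosphate genes Alpl, Enpp1 and Ank, and the matrix protein genes Ibsp, Spp1, Dmp1, Bglap and Bglap2. All 10 symbols were found. The question put to them was which cells held their RNA and whether they occurred in the same cells. The study prepared 2 single-cell libraries from Achilles tendon enthesis, the zone where the tendon enters the heel bone, of SKG mice, a strain that carries a Zap70 mutation and can develop arthritis and enthesitis. One library came from mice under tail suspension, which takes the load off the hind limbs, and one from mice without tail suspension. The tissue was digested with collagenase II, strained, and cleared of red and dead cells, so cells held inside mineral may be missed. How many animals went into a library, their age and sex, and whether arthritis had been induced are not given in the sources used here. With 1 library in each condition no test between conditions is possible, and condition and library cannot be told apart.

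Mineral forms where phosphate is plentiful and its inhibitor pyrophosphate is scarce. Osteoblasts and hypertrophic chondrocytes use alkaline phosphatase to break pyrophosphate down, while other cells make or export pyrophosphate and keep soft tissue free of mineral. At the enthesis a mineralised and an unmineralised fibrocartilage lie side by side, so both sides of this balance belong to the tissue.

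Dmp1, Ibsp and Spp1 lie on mouse chromosome 5 (build GRCm38) with Mepe between Ibsp and Spp1, 4 genes within 238 kb on 1 strand. Ibsp covers chr5:104299171-104311469 and Spp1 covers chr5:104435118-104441050, both on the plus strand. The osteocalcin genes lie on the minus strand of chromosome 3, Bglap at chr3:88383501-88384464 and Bglap2 at chr3:88377736-88378699. Their reference transcripts match at 434 of 440 bases (98.64%), so the split of UMIs between Bglap and Bglap2 is uncertain, and the sum of both is given beside them. Runx2 and Ank overlap other genes, some of them on the opposite strand, and whether the counting used strand is not given in the sources used here. The promoters of the 3 matrix genes with the most UMIs among those with an entry are shown, a choice made after their values were seen. Each runs from 250 bases before to 50 bases after the start of the gene (RefSeq, GRCm38.p6), 5′ to 3′ on the gene's strand, and capitals mark the core motif of the RUNX factors (ACCACA, or TGTGGT on the other strand). They cover chr5:104299037-104299336 for Ibsp, chr5:104434861-104435160 for Spp1 and chr3:88384417-88384716 for Bglap.
Ibsp: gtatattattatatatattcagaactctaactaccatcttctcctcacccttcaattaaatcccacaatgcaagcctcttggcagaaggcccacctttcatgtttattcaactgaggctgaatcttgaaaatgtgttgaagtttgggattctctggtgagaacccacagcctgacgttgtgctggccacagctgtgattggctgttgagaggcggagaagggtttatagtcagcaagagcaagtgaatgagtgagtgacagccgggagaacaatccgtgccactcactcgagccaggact
Spp1: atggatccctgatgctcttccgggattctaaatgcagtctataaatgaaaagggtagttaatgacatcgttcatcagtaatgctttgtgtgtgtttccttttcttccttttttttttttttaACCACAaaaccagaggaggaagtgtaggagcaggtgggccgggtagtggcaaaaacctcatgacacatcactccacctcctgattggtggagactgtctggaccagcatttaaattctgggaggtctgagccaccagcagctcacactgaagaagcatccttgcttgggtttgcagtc
Bglap: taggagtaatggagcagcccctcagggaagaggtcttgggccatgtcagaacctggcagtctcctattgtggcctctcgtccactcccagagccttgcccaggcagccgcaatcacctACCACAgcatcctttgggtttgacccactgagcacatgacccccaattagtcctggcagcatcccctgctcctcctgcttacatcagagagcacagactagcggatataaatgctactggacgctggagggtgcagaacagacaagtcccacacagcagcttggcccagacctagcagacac
The motif stood at position -128 of Spp1 and at -132 of Bglap, and these letters were not in the window of Ibsp. Of 11 windows for 8 of the genes, 5 held it, against 5506 of 32851 promoter windows of the same length (16.8%). A match is a description of the letters and not of a bound site. Bglap2 and Sp7 had no entry in the table.

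After filters on genes, mitochondrial share and doublets, 13578 cells remained in the tail suspension library and 10636 in the non-tail suspension library, with medians of 8328 and 4587 unique molecular identifiers (UMIs, counts of captured RNA molecules). 47 cell barcodes occurred in both libraries. Clustering without the 10 genes gave 32 clusters, of which 27 could be named from marker genes and 5 could not. No cluster could be named osteoblast-, osteocyte- or chondrocyte-like: Mepe, an osteocyte gene, had 0 UMIs in both libraries, and the osteoblast gene Phospho1 had 18 and 14 UMIs. Other markers of these cells were present without giving a cluster its name. Col22a1 had 9328 and 3011 UMIs, Pth1r 2186 and 1580, and Omd 1005 and 361. The cartilage genes Col2a1 and Acan had 2431 and 7470, and 1380 and 3225. Chad, also on the cartilage marker list, was among the leading genes of cluster 21, which was named tenocyte-like. The 7 fibroblast-, tenocyte- and sheath or lining fibroblast-like clusters are called mesenchymal below; they held 5799 tail suspension cells and 1343 non-tail suspension cells. Their make-up was unlike: the Chad-rich tenocyte-like cluster 21 made up 10.5% and 3.20% of them, the sheath or lining fibroblast-like cluster 14 made up 19.5% and 7.82%, and the tenocyte-like cluster 9 made up 10.6% and 72.9%. The summed level of the 6 sheath markers was 33049 and 5782 CPM (UMIs of the genes per 1000000 UMIs of the same cells) in mesenchymal cells, that of the 8 tenocyte markers was 1941 and 6322 CPM, and that of the 5 red cell markers was 319 and 2.60 CPM; the part of these differences in the results below was not tested. T cell-like cells, which should lack the matrix genes, serve as the background for RNA free in the droplets.

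In tail suspension most UMIs of each gene but Runx2 lay in mesenchymal cells, but the genes were not all in the same ones. In tail suspension, mesenchymal cells held 96.6% of the Ibsp UMIs, 86.2% of Bglap2, 77.2% of Alpl, 69.8% of Enpp1, 61.5% of Spp1 and 58.1% of Ank, but 42.9% of Runx2. In non-tail suspension the same shares were 85.4% for Ibsp, 46.1% for Bglap2, 69.1% for Alpl, 51.6% for Enpp1, 16.1% for Spp1, 48.1% for Ank and 23.2% for Runx2. Ibsp was a gene of the Chad-rich cluster 21 and osteocalcin of the sheath cluster 14. Enpp1 was a gene of tenocyte-like and sheath cells and of unnamed clusters 16 and 24, and Spp1 of many types. Runx2 reached its highest levels in plasmacytoid dendritic cell-like and T cell-like cells. Sp7 and Dmp1 were close to 0.

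**Figure D1:**
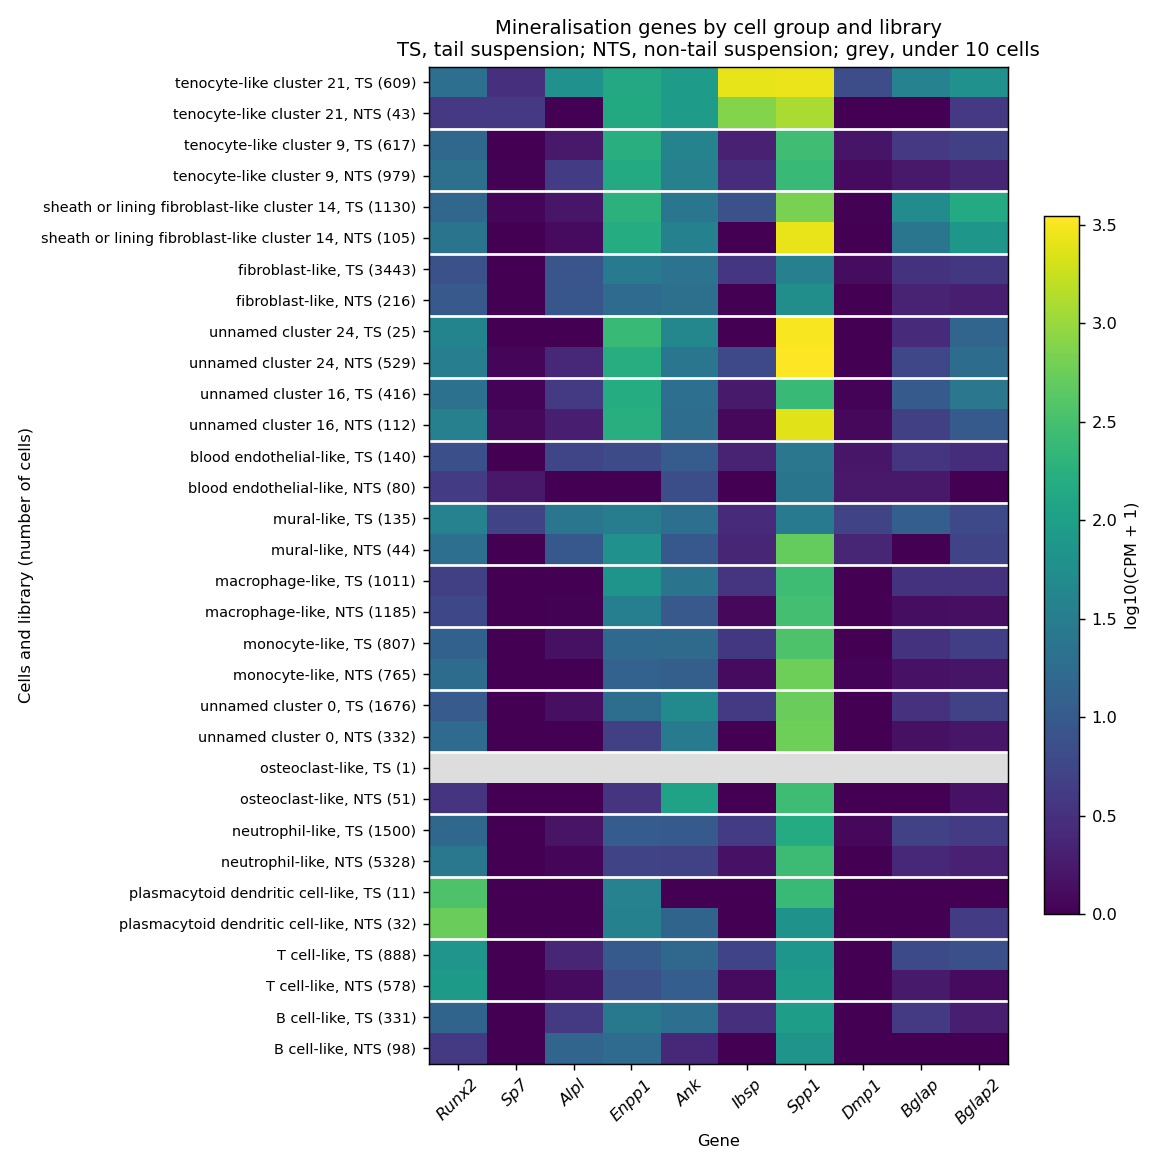
Level of the 10 genes (CPM, log colour scale) in the cell groups of the tail suspension and the non-tail suspension library. Ibsp stands out in tenocyte-like cluster 21, at 2572 and 761 CPM, and Bglap2 in the sheath or lining fibroblast-like cluster, at 146 and 73.6 CPM.

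**Figure D2:**
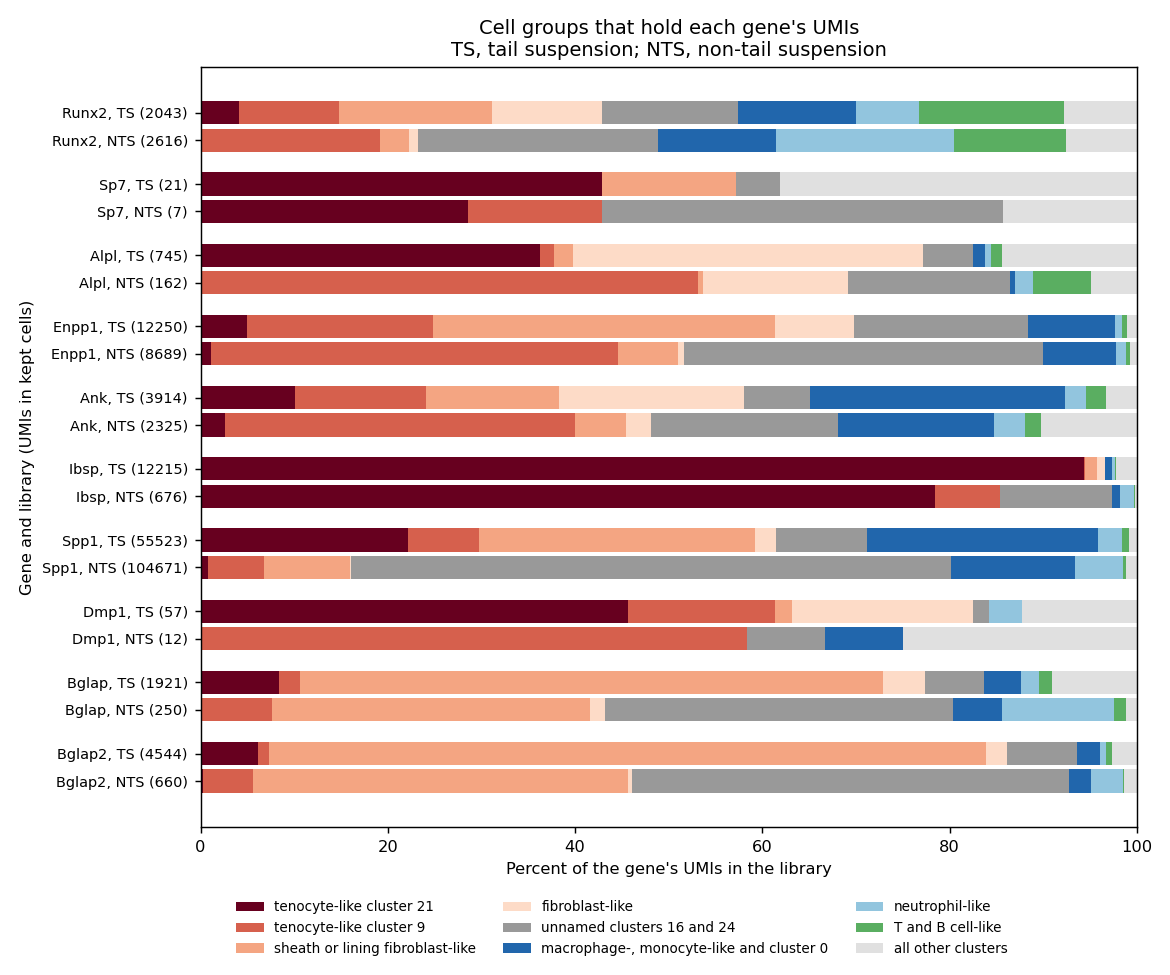
Share of each gene's UMIs (percent) by group of cells, in the tail suspension and the non-tail suspension library. Cluster 21 holds 94.3% and 78.4% of the Ibsp UMIs, while unnamed clusters 16 and 24 together hold 9.65% and 64.1% of the Spp1 UMIs.

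Runx2, the transcription factor that starts the osteoblast programme, had 2043 UMIs (13.6 CPM) in the tail suspension library and 2616 UMIs (22.7 CPM) in the non-tail suspension library. Runx2 (chr17:44495987-44814797, minus strand) had its highest level in plasmacytoid dendritic cell-like cells, at 352 CPM in 11 tail suspension cells and 539 CPM in 32 non-tail suspension cells, where 81.8% and 87.5% of cells had a UMI. T cell-like cells followed with 70.2 and 85.3 CPM. Runx2 is known to act in both lineages outside bone. In mesenchymal cells its level was lower, at 11.0 and 18.2 CPM. Cluster 9 had 14.8 and 19.2 CPM, the sheath cluster had 13.9 and 22.0 CPM, and fibroblast-like cells had 6.57 and 8.63 CPM. Cluster 21 went the other way, with 18.5 and 2.87 CPM, on 83 and 2 UMIs (log2 ratio 2.69, interval 0.79 to 5.76). Mural-like cells, the cells that wrap small vessels, had 36.0 and 18.5 CPM. Unnamed cluster 16 had 20.1 and 33.7 CPM, and unnamed cluster 24 had 38.9 and 31.8 CPM, on 23 and 498 UMIs. These unnamed clusters, not counted as mesenchymal, together held 14.4% and 25.6% of the Runx2 UMIs. Sp7 (chr15:102356606-102367182, minus strand), the osteoblast factor that acts after Runx2, had 21 UMIs in 17 tail suspension cells and 7 UMIs in 6 non-tail suspension cells, with 0 in the immune clusters of both.

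Alpl (chr4:137741733-137796384, minus strand), the alkaline phosphatase that breaks down pyrophosphate, was sparse: 745 UMIs in 317 tail suspension cells (4.96 CPM) and 162 UMIs in 85 non-tail suspension cells (1.41 CPM). Its cells were different in the 2 libraries. In tail suspension, 36.2% of the UMIs lay in cluster 21 and 37.4% in fibroblast-like cells, while in non-tail suspension 53.1% lay in tenocyte-like cluster 9. Cluster 21 had 270 Alpl UMIs in 609 tail suspension cells (60.3 CPM) and 0 in 43 non-tail suspension cells. The ratio is 14-fold when the empty library is set to 3 UMIs. As the 270 UMIs lay in 44 of the 609 cells, the 0 in 43 cells sets no firm lower limit on it. Cluster 9 had 11 and 86 UMIs, or 0.74 and 3.30 CPM (log2 ratio -2.16), a low level in both. Fibroblast-like cells had 7.57 and 7.99 CPM. T cell-like cells had 1.39 and 0.275 CPM.

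Enpp1 (chr10:24637914-24712159, minus strand), which makes pyrophosphate outside the cell, was the most widely detected of the 3 phosphate genes, in 3348 tail suspension and 1981 non-tail suspension cells. Its levels were 81.6 CPM (12250 UMIs) and 75.4 CPM (8689 UMIs). In 3 mesenchymal clusters the level was much the same in both libraries: 188 and 154 CPM in the sheath cluster, 164 and 145 CPM in tenocyte-like cluster 9, and 135 and 139 CPM in cluster 21. Unnamed clusters 16 and 24 together held 18.6% and 38.4% of the Enpp1 UMIs. The level was 158 and 166 CPM in cluster 16, and 252 and 159 CPM in cluster 24, which had 25 tail suspension cells. In some other cells it was higher in tail suspension. Fibroblast-like cells had 28.1 and 16.3 CPM (log2 ratio 0.79) and macrophage-like cells 66.3 and 32.3 CPM (1.04). Unnamed cluster 0 had 18.0 and 3.70 CPM (2.28). T cell-like cells had 9.0 and 6.61 CPM.

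Ank (chr15:27466677-27594909, plus strand), which carries pyrophosphate or its source out of the cell, had 3914 UMIs (26.1 CPM) and 2325 UMIs (20.2 CPM). Cluster 21 had 87.7 and 86.1 CPM, cluster 9 had 36.9 and 33.4 CPM, and the sheath cluster had 23.3 and 35.4 CPM. Ank also had a place outside the mesenchymal cells. Osteoclast-like cells, the bone-resorbing type, numbered 51 in non-tail suspension and had 108 CPM of Ank with a UMI in 84.3% of cells (95% exact interval 71.4% to 93.0%); the tail suspension library had 1 such cell. Unnamed cluster 0, rich in MHC class II genes, had 46.5 and 28.7 CPM. T cell-like cells had 14.8 and 10.5 CPM, with a UMI in 6.64% and 6.40% of cells.

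Ibsp, the bone sialoprotein gene, whose protein binds calcium and starts crystals, had 12215 UMIs (81.4 CPM) in tail suspension and 676 UMIs (5.86 CPM) in non-tail suspension. The Chad-rich cluster 21 had 11523 and 530 of them, a level of 2572 and 761 CPM. T cell-like cells had 4.16 and 0.275 CPM. Within the cluster most cells had none: 14.9% of the tail suspension cells and 6.98% of the non-tail suspension cells had a UMI, at median depths of 5787 and 15354 UMIs. In T cell-like cells 1.80% and 0.173% had one, at median depths of 3789.5 and 5411 UMIs. Very few cells held most of the gene. 360 and 35 kept cells had an Ibsp UMI, 63 and 7 had 10 or more, and the highest cell had 2845 and 319. The 10 highest cells held 60.3% and 96.2% of all Ibsp UMIs, and 50% lay in 7 tail suspension cells and 2 non-tail suspension cells. The Ibsp level of a group of cells thus rests on these few cells.

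**Figure D3:**
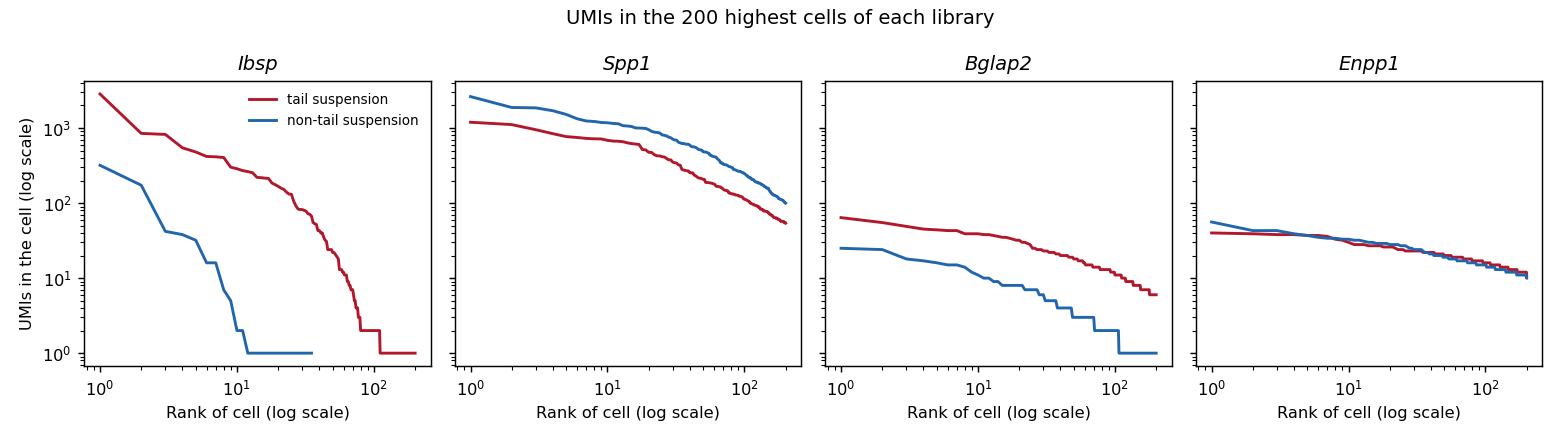
UMIs per cell of Ibsp, Spp1, Bglap2 and Enpp1 in the 200 highest cells, ranked, on log axes, for the tail suspension and the non-tail suspension library. The Ibsp line starts at 2845 and 319 UMIs and falls steeply, while Enpp1 starts at 40 and 56 UMIs and falls slowly.

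Spp1, the osteopontin gene, whose protein binds mineral and also serves as a signal of immune cells, was spread over far more cells. It had 55523 UMIs in 4105 tail suspension cells (370 CPM) and 104671 UMIs in 4501 non-tail suspension cells (908 CPM). The highest single cell had 1196 and 2626 UMIs, and 50% of the UMIs lay in 74 and 65 cells. Its direction between the libraries depended on the cells. In cluster 21 the level was 2751 CPM (12326 UMIs) in tail suspension and 1246 CPM (868 UMIs) in non-tail suspension, a log2 ratio of 1.14. In the sheath cluster it was 686 and 2658 CPM, a log2 ratio of -1.95 (95% interval for counting error -1.99 to -1.92), and thinned to 2000 UMIs per cell 17.4% and 44.7% of cells had a UMI. In unnamed cluster 24, led by Cxcl5, Mmp3 and Col1a1, it was 3266 and 3500 CPM, but that cluster had 25 and 529 cells and held 3.48% and 52.4% of all Spp1. In unnamed cluster 16, which has Cxcl5, Timp1 and dividing-cell genes, it was 253 and 2400 CPM (log2 ratio -3.24). Among myeloid cells, monocyte-like cells had 360 and 583 CPM, macrophage-like cells 273 and 305 CPM, and unnamed cluster 0 had 538 and 574 CPM. T cell-like cells had 72.9 and 87.5 CPM, with a UMI in 20.6% and 30.1% of cells, so levels near these are background.

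Among whole clusters, osteocalcin, best known as a protein of osteoblasts, was highest per cell RNA in the sheath or lining fibroblast-like cluster. The leading genes of that cluster include Prg4, the lubricin gene. A set of 21 tail suspension cells with both Ibsp and Alpl, described below, was higher, at 2450 CPM for both osteocalcin genes together. Bglap2 had 4544 UMIs (30.3 CPM) in tail suspension and 660 UMIs (5.72 CPM) in non-tail suspension. The sheath cluster held 76.6% and 40.0% of them, the second share moving from 16.1% to 65.3% under other filters and resolutions, at 146 CPM (3480 UMIs in 1130 cells) and 73.6 CPM (264 UMIs in 105 cells), a log2 ratio of 0.99 (95% interval for counting error 0.81 to 1.17). Bglap in the same cells had 50.2 and 23.7 CPM. Both genes together reached 196 and 97.3 CPM there, against 11.5 and 1.10 CPM in T cell-like cells. In the shallow unnamed cluster 25, Bglap alone was at 62.4 and 8.64 CPM, above the sheath cluster in tail suspension, on 149 and 2 UMIs. Bglap2 in cluster 25 was at 44.0 and 17.3 CPM, below the sheath cluster. A UMI of either gene was found in 703 of 1130 tail suspension cells and 59 of 105 non-tail suspension cells of the sheath cluster, at median depths of 20492 and 33242 UMIs. Thinned to 2000 UMIs, 18.4% and 8.74% of them had a Bglap2 UMI, while in the largest T cell-like cluster, at the same 2000 UMIs per cell, 2.09% and 0.273% did. So osteocalcin was spread over many sheath cells at a few UMIs each, and not gathered in a few cells like Ibsp: 50% of the Bglap2 UMIs lay in 108 and 32 cells, and the highest cell had 64 and 25. Unnamed clusters 16 and 24 together held 7.44% and 46.7% of Bglap2, with 24.4 and 9.02 CPM in cluster 16 and 13.5 and 16.7 CPM in cluster 24.

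The share that Bglap took of the osteocalcin UMIs was not the same in all cells. In the sheath cluster it was 25.6% (95% exact interval 24.4% to 26.9%) in tail suspension and 24.4% (19.9% to 29.2%) in non-tail suspension. In 21 tail suspension cells with both Ibsp and Alpl, described below, it was 45.9% (41.8% to 50.1%), and in tail suspension T cell-like cells 46.0% (31.8% to 60.7%). The intervals cover counting error only, and how reads that match both genes were counted is not given in the sources used here.

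Dmp1 (chr5:104202613-104214102, plus strand), a matrix gene of osteocytes, had 57 UMIs in 28 tail suspension cells and 12 UMIs in 12 non-tail suspension cells. In the tail suspension library 1 cell held 22 of them, and that cell was among the Ibsp-holding cells. No non-tail suspension cell had more than 1 Dmp1 UMI.

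Cells with many of the genes were rare, while cells with 2 or 3 of them were not. Among mesenchymal cells, 63.5% in tail suspension and 39.5% in non-tail suspension had none of the 10 genes at 2 or more UMIs. Exactly 2 of the genes were found in 10.2% and 19.4%, exactly 3 in 4.10% and 8.94%, and exactly 5 in 0.19% and 0.45%. The median depths of these cells were 11585 and 23544 UMIs. The most found in a cell was 8 genes, in 2 tail suspension cells of cluster 21, and 5 genes, in 6 non-tail suspension cells. To compare cells at one depth, each cell was thinned at random to 2000 UMIs, which left out 313 of 5799 tail suspension mesenchymal cells. Of the 105 thinned tail suspension cells with an Ibsp UMI, 66.7% also had Spp1, against 9.38% of the cells without Ibsp. The same pair of shares was 15.2% and 1.12% for Alpl, 11.4% and 4.35% for Bglap2, 29.5% and 12.1% for Enpp1, 13.3% and 5.32% for Ank, and 4.76% and 1.49% for Runx2. Part of this follows from cluster 21 itself. Inside that cluster, the 78 thinned cells with Ibsp had Spp1 in 84.6% (95% exact interval 74.7% to 91.8%), against 16.7% of those without Ibsp, and Alpl in 19.2%, against 1.96%. Enpp1 was in 34.6% and 17.0%, and Ank was in 15.4% and 15.7%. In the non-tail suspension library 5 thinned mesenchymal cells had Ibsp, too few for such shares.

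Most cells with osteocalcin had neither Ibsp nor Alpl, though both were found there more often than in the rest. Of 246 thinned tail suspension mesenchymal cells with Bglap2, 4.88% had Ibsp and 4.47% had Alpl, against 1.77% and 1.24% of cells without Bglap2. Inside the sheath cluster, the 205 thinned cells with Bglap2 had Spp1 in 17.6%, against 17.3% of the cells without it, so the 2 genes shared the cluster, and Spp1 was as frequent in cells with and without Bglap2. Bglap was in 20% and 6.50% of those cells. In the non-tail suspension library 85 unthinned mesenchymal cells had Bglap2, and 0 of them had Alpl or Ibsp, against 4.13% and 0.715% of the cells without Bglap2; with shares this low, 85 cells can hardly show a difference. In cluster 21 the picture was different: of 16 thinned tail suspension cells with Bglap2, 68.8% had Ibsp and 68.8% had Alpl, against 12.8% and 2.49% of the cells without Bglap2.

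The 63 tail suspension cells with 10 or more Ibsp UMIs fell into kinds that differ in Alpl, a split made after their values were seen and given as a description. 59 of the 63 were in cluster 21, 3 in the shallow unnamed cluster 25 and 1 in the sheath cluster. 21 had an Alpl UMI and 42 did not, at much the same median depth of 9880 and 10084 UMIs. The 21 cells with Alpl also had others of the 10 genes. Osteocalcin was in 17 cells with 564 UMIs (2450 CPM) and Runx2 in 13 cells with 41 UMIs. Sp7 was in 5 cells with 6 UMIs and Dmp1 in 3 cells with 24 UMIs. Of the 42 cells without Alpl, osteocalcin was in 2 with 2 UMIs, Runx2 in 3 with 4 UMIs, and Sp7 and Dmp1 in 0. Of the osteoblast and osteocyte markers, Phospho1, Bglap3, Mepe and Sost had 0 UMIs in all 63 cells, and the others had some. Ifitm5 was in 4 of the 21 cells with Alpl and 0 of the 42 without, and Omd in 15 and 26. Type I collagen (Col1a1) was at 33657 and 3652 CPM in the cells with and without Alpl. The cells without Alpl were higher in Spp1, at 4596 CPM with Alpl and 16042 CPM without, and in Clu, the clusterin gene, at 1781 and 10297 CPM. All 42 cells without Alpl had 10 or more Clu UMIs, and 7 of the 21 with Alpl did. Both kinds had Ibsp, at 24155 and 12014 CPM, but 1 cell held 2845 of the 5560 Ibsp UMIs in the cells with Alpl. Both also had the cartilage and fibrocartilage genes Chad, at 5079 and 3315 CPM, and Comp, at 6173 and 9721 CPM. Per cell Chad went the other way, with medians of 10 UMIs with Alpl and 28.5 without. It was found in 15 of 21 and 41 of 42 cells. The cartilage collagen gene Col2a1, at 969 and 2204 CPM, was in 8 of 21 and 16 of 42 cells, with a median of 0 UMIs in both. Enpp1 was in 10 of 21 and 31 of 42 cells, and Ank in 10 of 21 and 18 of 42.

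**Figure D4:**
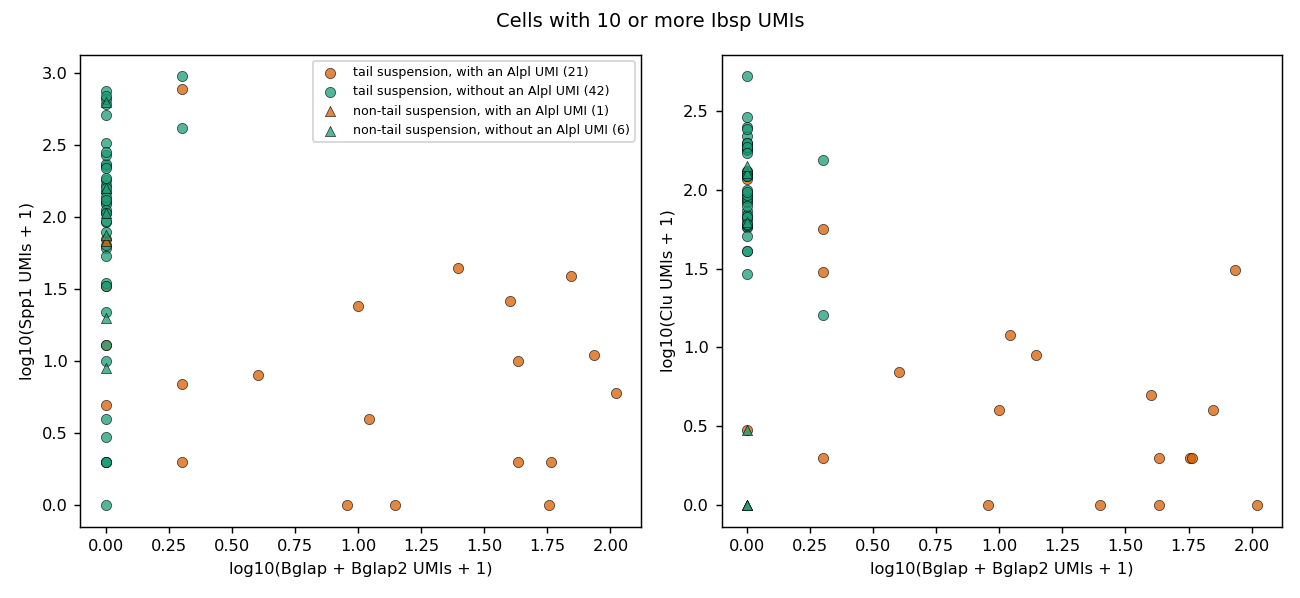
Spp1 (left) and Clu (right) against the sum of Bglap and Bglap2 in each cell with 10 or more Ibsp UMIs, all as log10 of UMIs + 1; circles are the 63 tail suspension cells, triangles the 7 non-tail suspension cells, and orange marks an Alpl UMI. The points with 2 or more osteocalcin UMIs are 14 tail suspension cells, all with Alpl, and the 42 tail suspension cells without Alpl stand high in Clu.

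The 7 non-tail suspension cells with 10 or more Ibsp UMIs had 319, 173, 42, 38, 32, 16 and 16 of them. 3 were in cluster 21, 3 in unnamed cluster 24 and 1 in cluster 9. All 7 had Spp1 and Enpp1 and 6 had Ank, but 1 had Alpl, with 2 UMIs, and 0 had osteocalcin. The 3 in cluster 21 had 126, 140 and 61 Clu UMIs and no Alpl, while the other 3 without Alpl had 2, 0 and 0 Clu UMIs. A cell with Ibsp, Alpl and osteocalcin was not found in the 10636 non-tail suspension cells at this threshold. That count is limited by the small number of Ibsp-holding cells, 7.

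Set beside the 518 tail suspension cells of cluster 21 with no Ibsp, the 63 Ibsp-holding cells were higher in Chil1 (6505 against 248 CPM), Rbp4 (652 against 37.8 CPM), Frzb, a Wnt antagonist of joint cartilage (362 against 15.3 CPM), Omd, a keratan sulphate proteoglycan of bone (385 against 41.2 CPM), and Col2a1 (1825 against 234 CPM). Of the 8 tenocyte markers they were lower in all but Comp: Tnmd was at 7.99 against 565 CPM, Thbs4 at 172 against 4812 CPM, Fmod at 763 against 4045 CPM and Kera at 0 against 388 CPM, while Comp was at 8633 against 4815 CPM. The cartilage marker list, which holds Col2a1, did not go one way. Acan was also higher in the Ibsp-holding cells (302 against 88.7 CPM), as were Chad, Col11a2, Snorc, Hapln1, Cytl1 and Col9a3. Cnmd was lower (5.33 against 24.7 CPM), as were Col9a1 (0 against 10.5 CPM) and Matn3. Col9a2 was much the same in both sets of cells, and Matn1 had no UMI in either. The cells were divided by Ibsp itself, so these values describe them and test nothing.

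Genes with the most similar pattern were sought by Pearson's r of log2(CPM + 10) over 49 pairs of cluster and library, a description in which points share libraries and depth. Ibsp was most like Coch (0.92), Frzb (0.89) and Snorc (0.86), and its closest partner among the 10 genes was Alpl (0.74). The likeness to Coch did not hold cell by cell: of 57 tail suspension cells of cluster 21 with Coch, 3 had any Ibsp and 0 had 10 or more UMIs of it. Alpl was most like Calhm5 (0.81), Omd (0.80) and Wif1 (0.79). Bglap2 was most like its copy Bglap (0.85), then Pla2g2e (0.80), Higd1a (0.79) and Htra4 (0.78). Enpp1 was nearest Ltbp2, Rnf150 and Nt5dc2 (0.85 each), and Bglap2 (0.61) among the 10. Bglap itself was most like Dlx3 (0.72), Prg4 (0.70) and Slurp1 (0.68) outside the 10. Ank was nearest Uqcc2 and Agpat4 (0.74 each) and Acot13 (0.72), with 0.46 for Enpp1, and Spp1 was nearest Inhba (0.65), Slpi and Adam23 (0.62 each), with 0.54 for Enpp1. Runx2 was nearest Podnl1 (0.83), Skap1 and D16Ertd472e (0.80 each), with 0.11 for Bglap, its closest partner among the 10.

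Over all mesenchymal cells, Alpl and the matrix genes other than Spp1 were 2-fold or more higher in tail suspension. Enpp1, Ank, Spp1 and Runx2 were lower by less than that, but of these only Runx2 kept its sign under every alternative run. Enpp1 ran from -0.52 to 0.39, Ank from -0.38 to 0.061 and Spp1 from -1.88 to 0.19. At its lowest, Spp1 was thus past 2-fold lower. Unnamed clusters 16 and 24, not counted as mesenchymal, held 9.65% of the Spp1 UMIs in tail suspension and 64.1% in non-tail suspension. Alpl turned to -0.63 when the ratios within clusters were averaged. Ibsp was at 147 CPM in tail suspension and 17.3 CPM in non-tail suspension, a log2 ratio of 3.09 (95% interval for counting error 2.97 to 3.22). Bglap2 was at 48.9 and 9.09 CPM (2.43), Bglap at 18.6 and 3.23 CPM (2.52), Alpl at 7.18 and 3.35 CPM (1.10, interval 0.81 to 1.41), and Dmp1 had 47 and 7 UMIs (1.49, interval 0.33 to 2.88). Enpp1 was at 107 and 134 CPM (-0.33), Ank at 28.4 and 33.4 CPM (-0.24), Spp1 at 427 and 503 CPM (-0.24) and Runx2 at 11.0 and 18.2 CPM (-0.73). With 20 or more UMIs over both libraries as the floor, 9 of the 10 genes were measured, 5 were 2-fold or more higher and 0 were 2-fold or more lower, with a median log2 ratio of 1.10. The tail suspension cell with the most Ibsp, 2845 UMIs, also held 22 of the 47 Dmp1 UMIs; without it Dmp1 was at 0.58, Ibsp at 2.70 and Alpl at 1.01, and 4 genes were 2-fold or more higher. Of 15903 genes measured in the same way, 1752 (11.0%) were 2-fold or more higher and 1019 (6.41%) were 2-fold or more lower, with a median of 0.06.

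**Figure D5:**
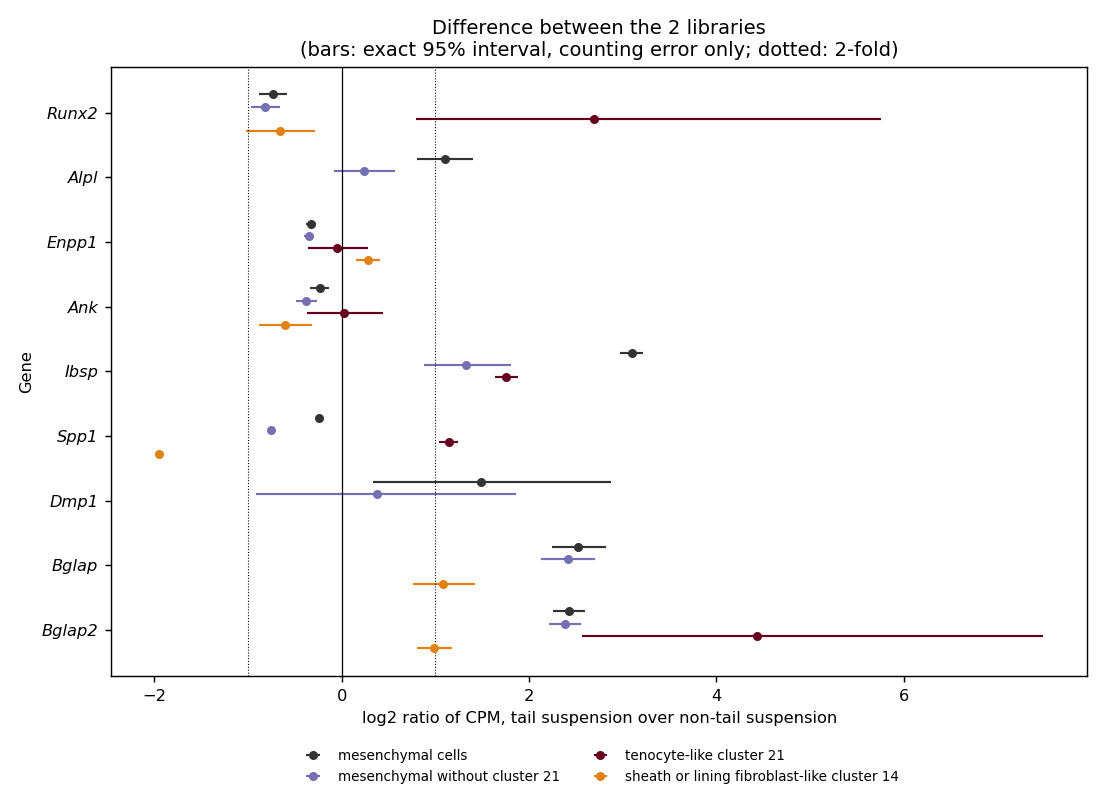
Log2 ratio of CPM, tail suspension over non-tail suspension, for each gene in all mesenchymal cells, in mesenchymal cells without cluster 21, in cluster 21 and in the sheath cluster, with 95% intervals for counting error only; pairs with too few UMIs or a 0 in one library are left out. Ibsp is at 3.09 over all mesenchymal cells and 1.33 without cluster 21, where its 3.60 CPM in tail suspension is under the 4.16 CPM of T cell-like cells, and Spp1 lies on both sides of 0, at 1.14 in cluster 21 and -1.95 in the sheath cluster.

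The sums over mesenchymal cells changed with the clusters that were summed. Without cluster 21, Ibsp was at 3.60 and 1.44 CPM (log2 ratio 1.33), and as T cell-like cells had 4.16 and 0.275 CPM, the tail suspension value is at background and this ratio is not read as expression. In the same cells Alpl at 4.04 and 3.42 CPM (0.24, interval -0.08 to 0.56) and Dmp1 had 21 and 7 UMIs (0.38). 3 of the genes were then 2-fold or more higher, Ibsp at background among them. Bglap (2.41) and Bglap2 (2.38) kept their ratios without cluster 21. Within the sheath cluster these ratios were smaller, at 1.08 for Bglap and 0.99 for Bglap2. Sheath cells were 19.5% of the mesenchymal cells in tail suspension and 7.82% in non-tail suspension. In cluster 9 the ratio of Bglap2 was 1.43, on 54 and 35 UMIs. How much the levels within clusters and the make-up each add to the osteocalcin ratio over mesenchymal cells was not tested. Within cluster 21, Ibsp had a log2 ratio of 1.76 and Bglap2 of 4.43 (278 and 2 UMIs, interval 2.57 to 7.49), while Enpp1 (-0.05) and Ank (0.03) stayed near 0.

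Other genes of mineralisation did not follow the 10 as a group, by counts in all mesenchymal cells to be read against the 11.0% and 6.41% of all genes. Of 14 mineral-binding and bone matrix genes, 11 were measured, 1 was 2-fold or more higher and 5 were 2-fold or more lower, with a median log2 ratio of -0.91. The one higher was Ifitm5, an osteoblast membrane protein gene, with 86 and 12 UMIs (1.58). The lower ones included Mgp, an inhibitor of mineral in cartilage and vessels, at 568 and 3765 CPM (-2.73), Col1a1 at 5215 and 15927 CPM (-1.61), Tnn at 88.7 and 258 CPM (-1.54), Sparc (-1.40) and Col1a2 (-1.06). Of 12 genes of phosphate, pyrophosphate and matrix vesicles, 10 were measured and 1 was higher: Smpd3, a sphingomyelinase needed for bone mineral, had 1928 and 14 UMIs, or 24.1 and 0.42 CPM (5.85). Entpd5 (-0.65) and Nt5e (-0.52), which act on nucleotides outside or inside the cell, did not reach 2-fold, and the median of the list was -0.34. Of 12 transcription factors, 11 were measured, 2 were higher, Msx2 (1.65) and Dlx3 (1.31, 21.9 and 8.82 CPM), and 0 were lower. Tcf7 (0.92) did not reach 2-fold, and the median was 0.47. Of 14 signal genes, 11 were measured: Bmp2, a bone-inducing ligand, was higher at 111 and 45.1 CPM (1.30), and Wnt16 was lower at 0.80 and 4.69 CPM (-2.55). Bmp4 was at 0.87, and the median was 0.27. Of 9 osteocyte genes, 7 were measured and 1 was lower, Fgf23, with 28 and 33 UMIs (-1.5). Cd44 was at 0.62, Phex at 0.59 and Pdpn at -0.21, with a median of -0.08. Of 7 genes of hypertrophic cartilage, 6 were measured: Col10a1 had 136 and 0 UMIs, of which 134 were in 1 tail suspension cell, and the collagenase gene Mmp13 was at 69.9 and 184 CPM (-1.40). Mef2c (0.90) and Vegfa (0.69) did not reach 2-fold, and the median was 0.23.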

How the data were processed

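Per the labels' protocols, cells of digested Achilles enthesis were put through the 10x system and sequenced on an Illumina NovaSeq. The authors deposited 1 matrix per library of UMI counts, raw and not normalised, for 32285 genes. Cell Ranger 5.0.1 and GRCm38 are named in the submitters' processing notes, with no role given. The matrices held 15545 tail suspension and 11430 non-tail suspension barcodes, with 166606774 and 121868851 UMIs. Cells with under 300 genes (268 and 91) or over 20% mitochondrial UMIs (794 and 392) were removed, then 905 and 311 doublets called by Scrublet at a fixed score of 0.25, a value chosen after seeing the data. Kept cells had 150136492 and 115294380 UMIs. Both libraries were clustered together (scanpy 1.11.5, 2000 variable genes without the 10 genes, 30 components, 15 neighbours, Leiden resolution 1). Leading genes of a cluster were ranked among those found in at least 20% of its cells. Clusters were named "X-like" after the marker list with most genes among the 10 leading ones. At least 3 markers of that list had to be among the 50 leading genes. Markers of another class could be among them too. CPM is the summed UMIs of a gene per 1000000 UMIs of the same cells. Intervals are exact 95% intervals (Poisson for CPM, Clopper-Pearson for shares, conditional binomial for ratios) and cover counting error only. Log2 ratios run tail suspension over non-tail suspension, and a gene at 0 is set to 3 UMIs where a ratio is given. The named genes are the 10 genes, for each with 200 or more UMIs the 3 other genes most like it, and in each list the 3 genes of largest ratio with 100 or more UMIs, of which 1 is not reported here; other genes named in the lists, and those that describe the Ibsp-holding cells, were chosen after their values were seen. The genes and lists were chosen with earlier results of these data known. The steps that compute ratios were tested on simulated data. Alternatives covered the cell filters, doublets, resolution, the 10 genes in the clustering, thinning, median-of-ratios scaling and the clusters or cells summed, the last chosen after seeing the data.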

Additional observations from a re-analysis of the deposited data

Results flagged for a closer look

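Spp1 differed in direction between clusters under the same contrast of libraries, each cluster past 2-fold, and this difference was not tested. Its log2 ratio (the library under tail suspension over the one without) was 1.44 in neutrophil-like cluster 15 and 1.14 in the Chad-rich tenocyte-like cluster 21. It was -1.70 in neutrophil-like cluster 12, -1.95 in the sheath or lining fibroblast-like cluster 14, -3.24 in unnamed cluster 16 and -3.47 in the shallow unnamed cluster 25. T cell-like cells, taken as background, had 72.9 and 87.5 CPM of Spp1. The tail suspension level was 40.8 CPM in cluster 12 and 88.0 CPM in cluster 25, and the non-tail suspension level was 120 CPM in cluster 15, so these 3 ratios set a level against one near background. With 1 library in each condition, no group was large enough to look for a single library far from the others.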

How the results depend on the processing

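No paired analysis was possible because each condition has 1 library. In the log2 ratios over mesenchymal cells, Ibsp, Bglap, Bglap2 and Dmp1 stayed above 0 and Runx2 below 0 under every alternative that gave a value (Ibsp 1.33 to 3.55, Bglap 1.28 to 3.53, Bglap2 1.33 to 3.30, Dmp1 0.38 to 1.84, Runx2 -0.93 to -0.57). The 1.33 of Ibsp is the run without cluster 21, at background and not read as expression. Osteocalcin in T cell-like cells was also higher in tail suspension, at 11.5 and 1.10 CPM. The part of such background in the sign of these ratios was not tested. Spp1 turned to 0.0011 with at least 500 genes per cell, to 0.13 with the 10 genes in the clustering and to 0.19 when cells were thinned to 2000 UMIs, and Ank to 0.061 when thinned. With the mean of the ratios within 4 clusters, cluster 21 not among them, Alpl turned to -0.63 and Enpp1 to 0.39. The number of the genes 2-fold or more higher was 3, not 5, with the mean of ratios within clusters or without cluster 21. Both of these runs leave out cluster 21. The number was 4 without the cell with the most Ibsp. The number lower was 1, not 0, with doublets kept, at resolution 0.5, or with clusters 16 and 24 added. Of the genes measured in the main run, only Spp1 had a value past 2-fold lower, at -1.88 in its lowest run. The share of Bglap2 UMIs in the sheath cluster in tail suspension was 65.9% with at least 500 genes, 80.3% with at least 1000 genes and 73.6% with at most 10% mitochondrial UMIs, against 76.6%. In non-tail suspension it was 40.0%, and moved to 16.1% with at least 500 genes, 26.1% with at least 1000 genes, 22.0% with at most 10% mitochondrial UMIs, 22.1% with doublets kept, 65.3% at resolution 0.5, 25.2% at resolution 2.0 and 20.6% with the 10 genes in the clustering. The share of Ibsp UMIs in its top cluster in tail suspension was 96.0% with at least 1000 genes and 94.9% with at most 10% mitochondrial UMIs. Without thinning, 51.9% of mesenchymal cells with Ibsp had Spp1. The cause of these shifts was not tested. Few UMIs limit Sp7 and Dmp1, and few cells with a UMI limit Alpl and Ibsp in non-tail suspension.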
